A study of Ambystoma mexicanum with 12 samples.

Results

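The interaction of spinal cord injury with a miR-200a inhibitor was examined gene by gene in the axolotl (Ambystoma mexicanum). For each gene the response to injury was taken as the difference in log2(TPM + 0.5) between tissue collected 4 days post-injury and uninjured tissue, where TPM is a gene's share of the transcripts of a library on a fixed scale, adjusted for transcript length. The interaction is the response measured in animals given the miR-200a inhibitor minus the response measured in animals given a control inhibitor. An interaction above 0 therefore marks a gene that was higher at 4 days post-injury, relative to its uninjured level, with the miR-200a inhibitor than with the control. Members were chosen by level alone, as every gene with at least 0.5 TPM in 3 or more of the 12 libraries. This rule kept 14764 of the 15091 genes in the table. The interaction of 4 of these 14764 genes passed an adjusted p of 0.05.

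The 12 libraries fell into 4 groups of 3. Uninjured control spinal cord was given the control inhibitor (libraries numbered 1 and 5, and a library, S2, with no number of its own). The 4 days post-injury control group was given the same control inhibitor and then lost a portion of its spinal cord (libraries 1, 5 and 6). The uninjured miR-200 inhibitor group (libraries 5, 6 and 7) and the 4 days post-injury miR-200 inhibitor group (libraries 5, 6 and 7) differed from these in the inhibitor. Values for single libraries are given below in these orders. The inhibitors were injected under pressure into the fluid space inside the cord in anesthetized animals, so that all 12 libraries come from injected animals. No strain or genetic change is named, the animals were 2 to 3 cm long, and tissue from 10 animals was pooled for each RNA sample, so the spread between libraries is a spread between pools. The level of miR-200a itself was not measured in these libraries. The animals' own sequences are not named in the table, and each row carries the symbol of the human gene it was matched to. Reads of close copies of a gene may thus be split or joined, which leaves levels in multigene families such as lysozymes and globins uncertain.

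The axolotl regrows a working spinal cord after a lesion, and the cells that line the central canal are its main source of new glia and neurons. miR-200a is a microRNA, a short RNA that lowers the stability or translation of messenger RNAs with a matching site, and in many vertebrate tissues the miR-200 family keeps epithelial genes on and mesenchymal genes off. The first days after a lesion also bring leukocytes into the wound, among them macrophages, which engulf debris and carry lysozyme, scavenger receptors and complement.

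Read depth per library is unknown, since the table gives TPM only. The median gene stood at 9.98 to 17.0 TPM in the uninjured control libraries, 8.66 to 14.5 in the 4 days post-injury control libraries, 4.55 to 6.00 in the uninjured inhibitor libraries and 6.09 to 7.09 in the 4 days post-injury inhibitor libraries. Libraries of a group correlated across genes at 0.82 to 0.91 among uninjured controls and otherwise at 0.93 to 0.98. The neuronal gene SNAP25 stood between 85.8 and 709 TPM and the glial gene GFAP between 85.7 and 2335 TPM, so nervous tissue was present in every library. Muscle genes took 1.36% to 8.49% of all TPM, the most in uninjured control library S2, and epidermal genes 0.158% to 1.93%. Uninjured control library 1 stood apart in its neuronal genes, which took 2.15% of its TPM against 0.357% and 0.690% in the other two libraries of its group.

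Few single genes passed as responding to injury differently under the inhibitor. With limma and Benjamini-Hochberg adjustment over all 14764 genes, 2 genes had a higher interaction (0.0135% of genes tested) and 2 a lower one (0.0135%), 0.0271% in all. The genes that passed were C1QTNF9 and C1QTNF2, which encode secreted proteins related to C1q and tumour necrosis factor, and LYZ and PLBD1, a lysozyme and a phospholipase B-like protein of myeloid cells. In C1QTNF9 and C1QTNF2 the response to injury was turned around, and in LYZ and PLBD1 it was reduced. No gene that passed had an enlarged response. The median standard error of an interaction was 0.57 on the log2 scale, and its 95% interval reached 1.23 to either side for the median gene. That interval is for a single gene before adjustment. To pass adjustment over 14764 genes, the interaction of such a gene had to be larger than this.

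The responses to injury behind these interactions were of unequal breadth. At an adjusted p of 0.05 and an absolute log2 difference above 1, injury with the control inhibitor raised 129 genes (0.874% of genes tested) and lowered 9 (0.061%). Of the 129, 3 had met the level rule through the injured control libraries alone, COL10A1 and PAX3 among them. These 3 had to differ between groups, and they are counted in the 129 here and below. Among the 9 lowered, FAM229A and ZAN were listed at 0 outside the uninjured control libraries. They met the level rule through those libraries alone and likewise had to differ between groups. Injury with the miR-200a inhibitor raised 60 (0.406%) and lowered 4 (0.0271%), PLA2G2E, PPY, PRDX2 and PTGDS. PLA2G2E had met the level rule through the uninjured inhibitor libraries alone, so that it too had to differ between groups. The median response of all genes was -0.09 with the control and 0.26 with the miR-200a inhibitor, and the median interaction was 0.31. Dividing each library by its median of ratios, a scaling to the typical gene, brought the median interaction to 0.04. Interactions are therefore best read against 0.31 rather than 0. After that scaling 4 genes passed again, 1 higher (C1QTNF9, 0.00677% of genes tested) and 3 lower (PLBD1, PLA2G2E and MARCO, 0.0203%), of which PLA2G2E had met the level rule through 1 group alone. The inhibitor itself, at an adjusted p of 0.05 and an absolute log2 difference above 1, raised 490 genes (3.32%) and lowered 6201 (42%) in uninjured tissue, and raised 31 (0.21%) and lowered 246 (1.67%) at 4 days post-injury. The direction of these counts depended on the scaling. After median of ratios scaling 2221 genes were raised and 1947 lowered in uninjured tissue, and 11 raised and 0 lowered at 4 days post-injury. Across genes the 2 responses, which share no library, correlated with Pearson's r of 0.28 before the scaling and 0.25 after it, a description over genes that are not independent of each other.

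**Figure D1:**
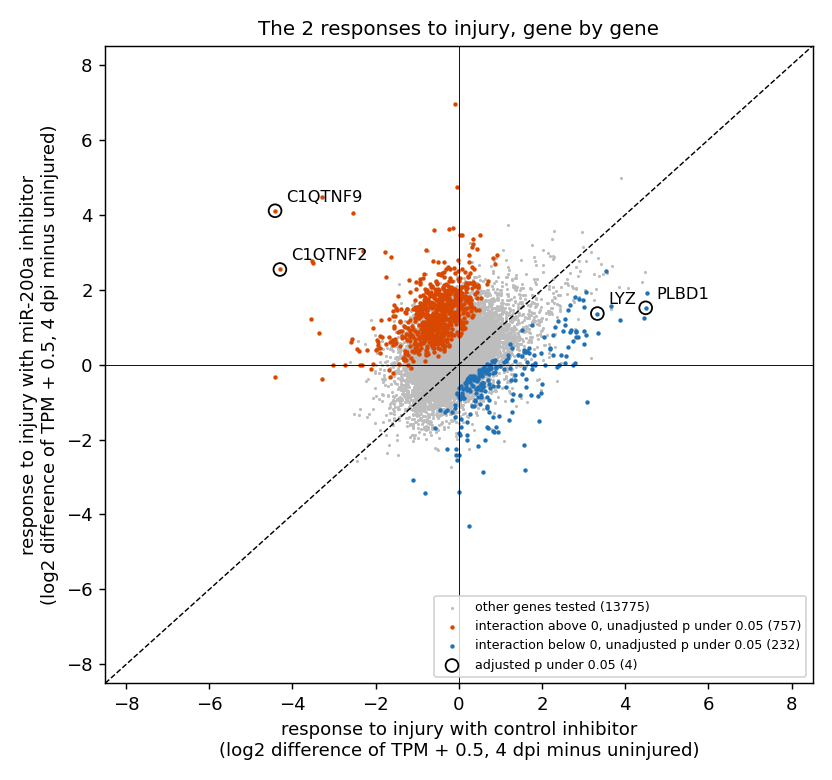
Response to injury of each of the 14764 genes with the control inhibitor (horizontal axis) against the response with the miR-200a inhibitor (vertical axis), both as differences in log2(TPM + 0.5), with the dashed line marking equal responses. Orange and blue points are genes with an interaction above or below 0 at an unadjusted p under 0.05 (757 and 232 genes), and circles mark the 4 genes that passed adjustment, with C1QTNF9 and C1QTNF2 in the upper left and LYZ and PLBD1 below the line at the right.

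C1QTNF9 gave the largest interaction of the genes that passed. The protein is a secreted relative of adiponectin, studied in mammals for its action on vessels and metabolism. Uninjured control libraries held 47.8, 19.9 and 24.3 TPM, and 4 days post-injury control libraries held 1.98, 0.798 and 0.278 TPM. Uninjured inhibitor libraries held 0, 1.17 and 0.200 TPM, and 4 days post-injury inhibitor libraries held 17.1, 18.4 and 8.41 TPM. The gene was thus high in uninjured control and in injured inhibitor tissue and low in the other two groups, and no low library reached a high one. In group means, 30.7 ± 15.01 TPM (SD, n = 3) fell to 1.02 ± 0.87 TPM with injury under the control inhibitor, and 0.457 ± 0.627 TPM rose to 14.6 ± 5.43 TPM under the miR-200a inhibitor. The response was -4.42 ± 0.56 (SE, log2) with the control (limma adjusted p = 0.0013) and 4.10 ± 0.56 with the miR-200a inhibitor (adjusted p = 0.00715). The rise with the miR-200a inhibitor did not pass without uninjured inhibitor library 5 or 7 or 4 days post-injury inhibitor library 6 (highest adjusted p = 0.0755). The interaction was 8.52 ± 0.78, with a 95% interval of 6.82 to 10.22 (adjusted p = 0.0012). It passed under each of the 23 other fits tried, with a highest adjusted p of 0.0215.

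C1QTNF2 showed the same turn with more spread. Its product is also a secreted protein of the C1q and tumour necrosis factor family. Uninjured control libraries held 41.0, 104.5 and 28.5 TPM and 4 days post-injury control libraries 2.48, 2.73 and 1.21 TPM. Uninjured inhibitor libraries held 7.40, 8.45 and 0.906 TPM and 4 days post-injury inhibitor libraries 18.6, 30.3 and 32.5 TPM. As in C1QTNF9, uninjured control and injured inhibitor libraries were the higher pair of groups, and within each inhibitor the injured and uninjured libraries did not overlap. The fall with the control inhibitor, -4.30 (log2), passed (limma adjusted p = 0.00458), while the response with the miR-200a inhibitor, 2.54, did not (adjusted p = 0.0998). The interaction was 6.84 ± 0.92 (SE), with an interval of 4.85 to 8.82 (adjusted p = 0.0195). After median of ratios scaling it was 6.52 with an adjusted p of 0.0554. Without 4 days post-injury control library 1, 5 or 6 the adjusted p was 0.0856, 0.0582 and 0.0834, and without 4 days post-injury inhibitor library 6 or 7 it was 0.109 and 0.103.

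The turn was not found across the family. Of 20 genes listed as C1q and tumour necrosis factor relatives, 13 were measured, and the interactions of the other 11 lay between -0.97 and 1.23, with a smallest unadjusted p of 0.0797. C1QTNF4 averaged 239.9 TPM in uninjured control, 66.6 in injured control, 68.2 in uninjured inhibitor and 11.3 in injured inhibitor libraries, so that its injured level was the lower with either inhibitor. ADIPOQ, adiponectin itself, had responses of -0.17 and -0.40 and an interaction of -0.23, none of which passed. In the RefSeq annotation of the axolotl assembly UKY_AmexF1_1, C1QTNF9 and C1QTNF2 lie on 2 different chromosomes and are not neighbours.

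LYZ, lysozyme, an enzyme of macrophages and granulocytes that cleaves bacterial cell walls, had the narrowest spread of the genes that passed. Uninjured control libraries held 77.9, 89.5 and 87.5 TPM and 4 days post-injury control libraries 807, 954 and 817 TPM. Uninjured inhibitor libraries held 715, 614 and 718 TPM and 4 days post-injury inhibitor libraries 1610, 1744 and 1906 TPM. Uninjured tissue given the inhibitor thus already held nearly as much as injured control tissue, and injured inhibitor tissue held more than any other group. The rise with injury was 3.33 (log2) with the control inhibitor (limma adjusted p = 5.37e-07) and 1.36 with the miR-200a inhibitor (adjusted p = 0.00396, 0.0854 after median of ratios scaling). The interaction was -1.97 ± 0.23 (SE), with an interval of -2.46 to -1.47 (adjusted p = 0.00857). The level, not the response, was higher with the inhibitor in both states, by 3.00 (adjusted p = 1.98e-06) in uninjured and 1.03 (adjusted p = 0.0436) in injured tissue. The difference in injured tissue passed in 11 of 23 other fits and did not after median of ratios scaling (adjusted p = 0.0761). After median of ratios scaling the interaction was -2.27 and did not pass (adjusted p = 0.21), and without 4 days post-injury control library 6 its adjusted p was 0.0509. In bulk tissue, fewer cells of a type and less RNA per cell cannot be told apart.

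PLBD1, a lysosomal phospholipase B-like protein found in neutrophils and monocytes of mammals, followed the same course. Uninjured control libraries held 5.32, 2.99 and 4.10 TPM and injured control libraries 102, 79.6 and 129 TPM. Uninjured inhibitor libraries held 63.4, 45.0 and 41.8 TPM and injured inhibitor libraries 129, 148 and 148 TPM. In deposited TPM the injured groups were closer to each other than the uninjured groups were. The median effect of the inhibitor on all genes in injured tissue was -0.62 on that scale. Injury raised it by 4.49 (log2) with the control (limma adjusted p = 2.48e-06) and by 1.51 with the miR-200a inhibitor (adjusted p = 0.0288), a rise that passed in 18 of 23 other fits (highest adjusted p = 0.174, without 1 inhibitor library). The interaction was -2.98 ± 0.37 (SE), with an interval of -3.78 to -2.18 (adjusted p = 0.0116), and it passed after median of ratios scaling (-3.23, adjusted p = 0.00779). Without 4 days post-injury control library 1 or 6 the adjusted p was 0.0522 and 0.0648, and without 4 days post-injury inhibitor library 6 or 7 it was 0.0599 and 0.0644.

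**Figure D2:**
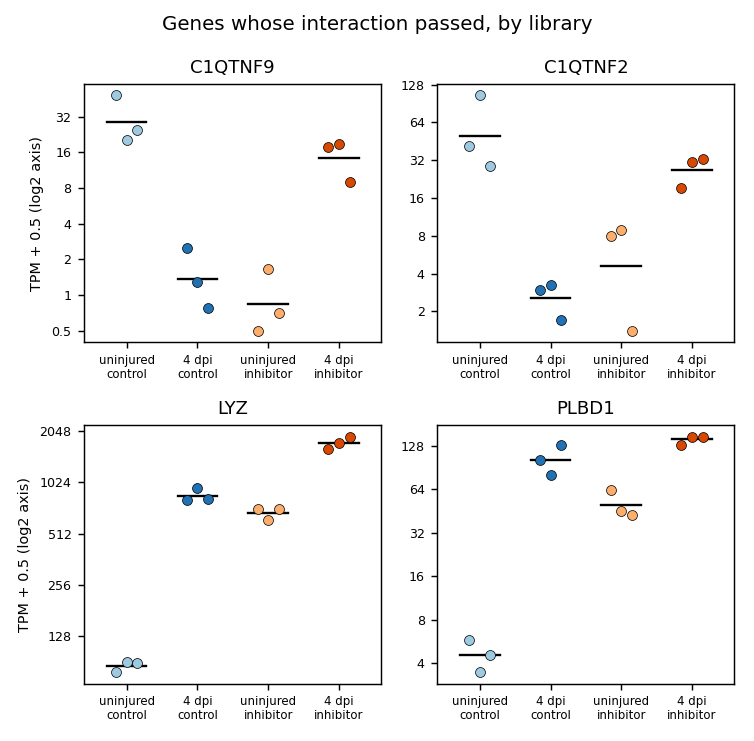
TPM + 0.5 on a log2 axis in each of the 12 libraries (points) for the 4 genes whose interaction passed, with bars at the group mean on that scale. C1QTNF9 and C1QTNF2 are high in uninjured control and injured inhibitor libraries, and LYZ and PLBD1 are low in uninjured control libraries only.

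A further pair, MARCO and PLA2G2E, passed after median of ratios scaling but not as deposited. MARCO, a scavenger receptor of macrophages, held 4.21, 1.72 and 2.12 TPM in uninjured control and 51.4, 18.1 and 28.9 TPM in injured control libraries. It held 12.1, 9.67 and 11.4 TPM in uninjured inhibitor and 16.6, 24.6 and 19.5 TPM in injured inhibitor libraries. As in LYZ, the uninjured inhibitor libraries lay above every uninjured control library. Its interaction was -2.51 as deposited (limma adjusted p = 0.373) and -2.74 scaled (adjusted p = 0.0333), and it also passed after quantile normalization (adjusted p = 0.0168) and with library weights (adjusted p = 0.00386). PLA2G2E, a secreted phospholipase A2 and a gene singled out after its values were seen, was listed at 0 in 9 libraries and at 4.64, 5.57 and 4.23 TPM in the uninjured inhibitor libraries. It met the level rule through those 3 libraries alone, so that it had to differ between groups, and its interaction, -3.40 as deposited and -3.87 scaled, is a description whose size depends on the added 0.5.

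Most genes that injury raised with the control inhibitor were also higher after injury with the miR-200a inhibitor, by less. Of the 129, 124 were also higher at 4 days post-injury with the miR-200a inhibitor, 84 by at least 1 (log2), and 35 (27.1%) passed, against 0.406% of all genes. Their median response was 2.42 with the control and 1.39 with the miR-200a inhibitor. Since these genes were picked for a high control response, part of that gap follows from the choice, and the unadjusted p of their interactions, under 0.05 in 53 and all of them lower, is given as a description. Already in uninjured tissue 115 of the 129 stood higher with the inhibitor than with the control, by a median of 1.08, where the median of all genes was -0.997. That difference is taken from the same uninjured control libraries that entered the choice of the 129. Part of it therefore also follows from the choice, and it too is a description. Taken from the other side, 35 of the 60 genes raised under the miR-200a inhibitor (58.3%) also passed under the control, and their median responses were 2.09 and 2.23.

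Markers of leukocytes and macrophages gave more of the genes raised with the control inhibitor than any other of the lists described below. Of the 39 measured, 14 rose with the control inhibitor, where 0.874% of all genes did, and 5 with the miR-200a inhibitor (CYBB, LCP1, LYZ, RAC2 and SPI1), where 0.406% did, and none fell. Their median response was 1.69 and 1.05, and their median interaction -0.52, against 0.31 for all genes. At an unadjusted p of 0.05, 10 members (25.6%) had a lower interaction and 1 (2.56%) a higher one, beside 1.57% and 5.13% of all genes. The 10 were AIF1, C1QB, C1QC, CYBB, LCP1, LYZ, MARCO, MRC1, PLEK and TYROBP, genes of macrophages and other myeloid cells, and of these only LYZ passed adjustment. LCP1, an actin bundler of leukocytes, held 10.5, 7.51 and 8.13 TPM in uninjured control, 64.6, 53.8 and 54.1 in injured control, 27.2, 30.6 and 25.1 in uninjured inhibitor and 81.2, 92.1 and 78.9 in injured inhibitor libraries. Its 4 groups did not overlap, and its rise passed with the control (2.66) and with the inhibitor (1.59), while its interaction of -1.07 did not (limma adjusted p = 0.658). CYBB, the catalytic subunit of the phagocyte oxidase, rose by 2.89 and 1.76 and had an interaction of -1.13 (adjusted p = 0.658). The rise of LCP1 with the inhibitor did not pass without uninjured inhibitor library 5 or 7 or 4 days post-injury inhibitor library 6 (highest adjusted p = 0.0577), and that of CYBB did not pass without the last of these (adjusted p = 0.0506). LCP1 and CYBB are defining markers that were chosen for the cell type, not by their rank. CORO1A, the exception, is an actin regulator of leukocytes and other cells, and it averaged 44.8, 33.6, 2.12 and 12.7 TPM in the order of groups above.

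The summed level of the 39 leukocyte markers did not follow the count of genes. It took 0.133% to 0.257% of all TPM in uninjured control, 0.293% to 0.501% in injured control, 0.156% to 0.178% in uninjured inhibitor and 0.324% to 0.398% in injured inhibitor libraries. The uninjured inhibitor libraries thus lay within the range of the uninjured controls, and the injured ones within the range of the injured controls. Of the 39, 19 stood higher with the inhibitor than with the control in uninjured tissue and 12 at 4 days post-injury. In uninjured tissue the mean of 11944 of all 14764 genes was lower with the inhibitor. The median effect of the inhibitor on the 39 was -0.08 in uninjured and -0.21 in injured tissue. For all genes it was -0.997 and -0.62, so the list stood above the typical gene in both states. PTPRC, the pan-leukocyte surface phosphatase, was at 1.32 to 2.65 TPM in uninjured control and 2.24 to 3.56 TPM in uninjured inhibitor libraries. The number of leukocytes in the tissue was not measured.

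Complement genes, whose products tag debris and microbes for removal, gave a like pattern, in part through the same genes. C1QB and C1QC are on this list and on the leukocyte list and are counted in both. Injury raised 5 of the 26 measured with the control inhibitor (C1QB, C1QC, C5AR1, C9 and SERPING1) and C5AR1 alone with the miR-200a inhibitor, beside 0.874% and 0.406% of all genes. At an unadjusted p of 0.05, 6 (23.1%) had a lower interaction and none a higher one, beside 1.57% and 5.13% of all genes, and none passed adjustment. C1QC, a chain of C1q that macrophages secrete, held 45.7, 12.8 and 64.9 TPM in uninjured control, 257, 205 and 178 in injured control, 220, 165 and 233 in uninjured inhibitor and 241, 336 and 273 in injured inhibitor libraries. Uninjured control libraries stood alone at the low end. Its response was 2.62 with the control, which passed, and 0.46 with the inhibitor, which did not, and its interaction was -2.17 (limma adjusted p = 0.658). SERPING1, the inhibitor of C1, had responses of 2.78 and 0.03, and the rise with the control passed in 14 of 23 other fits. The lysosomal proteases CTSC and CTSB gave smaller interactions, -0.70 and -0.61. CTSC rose with either inhibitor (1.76 and 1.06), though after median of ratios scaling the rise with the miR-200a inhibitor did not pass (adjusted p = 0.156), and for CTSB the rise of 1.53 with the control passed while that of 0.91 with the inhibitor did not (adjusted p = 0.0518).

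Of the largest lower interactions that did not pass, several came from genes that were low in uninjured control libraries. APOE, the lipid carrier secreted by glia and macrophages, held 142, 162 and 336 TPM in uninjured control and 722, 1564 and 943 TPM in injured control libraries. It held 800, 454 and 941 TPM in uninjured inhibitor and 569, 998 and 524 TPM in injured inhibitor libraries. The uninjured control libraries lay below all others, and the rise of 2.37 with the control (limma adjusted p = 0.00964) stood against -0.07 with the inhibitor. The rise had an adjusted p of 0.0562 after median of ratios scaling and 0.0563 without 4 days post-injury control library 5. Its interaction was -2.43 (adjusted p = 0.528). LGALS1, galectin-1, had responses of 2.58 and 0.24 and an interaction of -2.34 (adjusted p = 0.278). FABP1, a fatty acid binding protein, had responses of 4.45 and 1.24 and an interaction of -3.20 (adjusted p = 0.283). TREM2, a lipid receptor of microglia and macrophages, had responses of 2.85 and 0.73, and its interaction of -2.12 had an adjusted p of 0.658 as deposited and 0.0905 scaled. C19orf38 (2.74 and 0.62), LRRC31 (1.77 and -0.11) and the calcium binding protein S100G (1.13 and -0.59) had the same form. In each of these genes except FABP1 the response was at least 1 with the control and under 1 in size with the miR-200a inhibitor.

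PTGDS and TDRD9 differed from these in form. PTGDS, which makes prostaglandin D2 and is secreted into cerebrospinal fluid, held 645, 282 and 554 TPM in uninjured control, 653, 430 and 529 in injured control, 616, 331 and 666 in uninjured inhibitor and 119, 172 and 135 in injured inhibitor libraries. Injured inhibitor libraries alone were low, below every other library. It fell by 1.87 (log2) with injury under the miR-200a inhibitor (limma adjusted p = 0.0355), a fall that passed in 15 of 23 other fits, while the response with the control was 0.18, and its interaction of -2.05 had an adjusted p of 0.522. TDRD9, a helicase of the piRNA pathway of the germline, was listed at 0 in 5 of the 6 control libraries and at 0.311 TPM in the other. It held 39.4, 23.1 and 46.0 TPM in uninjured inhibitor and 17.1, 0 and 0.124 TPM in injured inhibitor libraries, so that 1 injured library was near the uninjured ones and the other two were near the controls. Its interaction was -4.55 (adjusted p = 0.658). ZNF75D, a zinc finger gene, held 0, 0 and 1.02 TPM in injured inhibitor libraries and 3.57, 14.0 and 10.9 TPM in injured controls, with an interaction of -4.39 (adjusted p = 0.658).

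Among higher interactions that did not pass, several genes repeated the turn of C1QTNF9. FNDC7, named for its fibronectin type III domain, held 6.64, 52.0 and 6.17 TPM in uninjured control, 0.885, 0.731 and 0.494 in injured control, 0.0545, 1.01 and 0.261 in uninjured inhibitor and 4.73, 5.68 and 4.89 in injured inhibitor libraries. No library of the high pair of groups overlapped with the low pair, and its interaction of 6.21 came closest to passing (limma adjusted p = 0.0589). ZPLD1, a membrane protein with a zona pellucida-like domain, held 46.8, 547 and 349 TPM, then 12.8, 70.2 and 9.69, then 22.6, 256 and 15.3, then 723, 1179 and 1179 TPM in the same order of groups. Its injured inhibitor libraries lay above all others, while each of the other groups spanned a wide range. Its interaction was 7.76, with an interval of 4.48 to 11.04 (adjusted p = 0.254). APOD, a lipid-binding lipocalin of glia, held 182, 211 and 320 TPM in injured inhibitor libraries and 3.601 to 163 TPM in the other 9, with an interaction of 6.59 (adjusted p = 0.373). With injury present, the inhibitor raised the level of both, ZPLD1 by 5.56 (adjusted p = 0.0436) and APOD by 4.91 (adjusted p = 0.0440). These effects passed in 11 and 10 of 23 other fits, and after median of ratios scaling neither did (adjusted p = 0.0866 and 0.0883). The protease gene PRSS1 held 2.42, 6.27 and 7.64 TPM in uninjured control, 0.924, 2.13 and 0.607 in injured control, 0.399, 1.45 and 0.291 in uninjured inhibitor and 3.78, 10.4 and 3.38 in injured inhibitor libraries. Its high and low pairs of groups did not overlap, and its interaction was 4.10 (adjusted p = 0.254).

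In other large higher interactions the uninjured inhibitor or the uninjured control libraries stood apart. IL27, which encodes a cytokine subunit, was listed at 0 in all 3 uninjured inhibitor libraries and held 3.00 to 9.74 TPM in the other 9. Its response of 3.46 with the miR-200a inhibitor passed (limma adjusted p = 0.00487, and 0.0506 without 4 days post-injury inhibitor library 6), that of 0.08 with the control did not, and its interaction was 3.38 (adjusted p = 0.201). KRT7, a keratin of simple epithelia, held 5.39, 22.0 and 8.78 TPM in uninjured control libraries, 0.506 TPM in an uninjured inhibitor library and 0 in the remaining 8. It fell by 4.42 with the control and was at or near 0 in every inhibitor library, and its interaction was 4.08 (adjusted p = 0.201). HSPA1A, an inducible heat shock protein, held 0 to 0.720 TPM in uninjured inhibitor libraries and 6.81, 263 and 497 TPM in injured inhibitor libraries, against 3.68 to 64.5 TPM over the control libraries. The injured inhibitor libraries of HSPA1A differed widely among themselves, and its interaction of 7.05 did not pass (adjusted p = 0.658). PDK4, an inhibitor of pyruvate use, had responses of -1.05 and 1.53. Its interaction was 2.58, that of USP53, a protein of tight junctions, 2.68, that of KCTD14 2.82 and that of the stress protein SESN1 1.28. None of these 4 passed (adjusted p between 0.264 and 0.55).

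**Figure D3:**
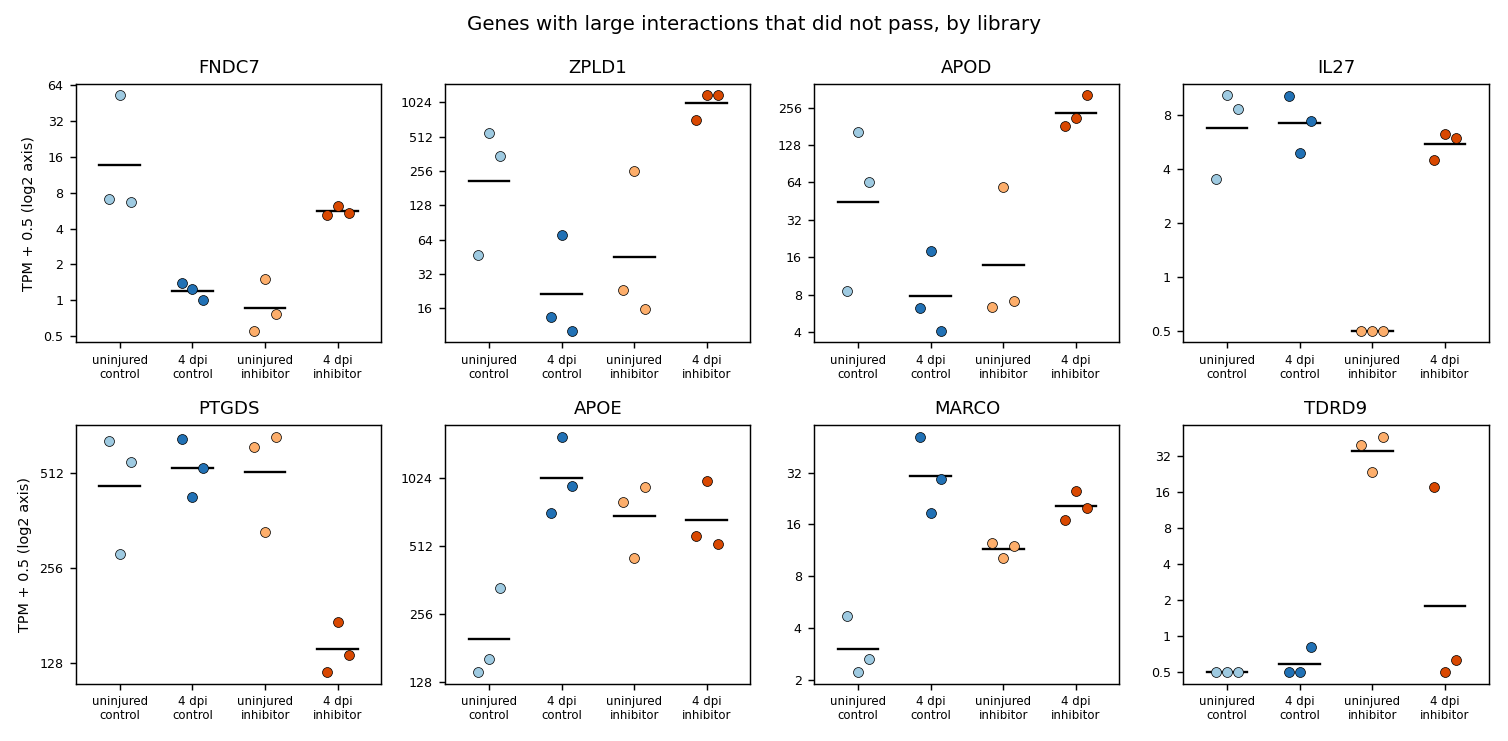
TPM + 0.5 on a log2 axis in each of the 12 libraries (points, with bars at the group mean on that scale) for 8 genes with large interactions that did not pass adjustment as deposited. FNDC7 is high in uninjured control and injured inhibitor libraries, and ZPLD1 and APOD are highest in injured inhibitor libraries. IL27 is at 0 in uninjured inhibitor libraries, PTGDS is low in injured inhibitor libraries, and APOE and MARCO are low in uninjured control libraries.

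Below the threshold of adjustment the interactions leaned upward. At an unadjusted p of 0.05, 757 genes (5.13%) were higher and 232 (1.57%) lower. The higher share of these was 76.5% as deposited, 66.2% after median of ratios scaling (902 higher, 6.11%, and 460 lower, 3.12%) and 45.3% after quantile normalization. The uninjured inhibitor group was the lowest of the 4 in 716 of the 757 higher genes (94.6%), against 57.1% of all genes, and its mean was under 1 TPM in 312 of them (41.2%), against 19.5% of all genes. The uninjured control group was the lowest in 157 of the 232 lower genes (67.7%), against 14.7% of all genes. Choosing genes by their interaction favours such patterns, so these shares describe the genes and are no test.

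The form of the response was read from sizes alone, with a response of at least 1 in size counted as moved. Of the 757 higher genes, 465 (61.4%) moved only with the miR-200a inhibitor, 82 (10.8%) only with the control, 47 (6.21%) in opposite directions and 163 (21.5%) in neither. With each response taken relative to the median of all genes, 368 (48.6%) moved only with the inhibitor, 25 (3.3%) in opposite directions and 279 (36.9%) in neither. Of the 232 lower genes, 68 (29.3%) moved only with the control, 41 (17.7%) only with the inhibitor, 19 (8.19%) moved the same way but less with the inhibitor, 6 (2.59%) in opposite directions and 97 (41.8%) in neither. Of all genes, 11.7% moved up and 2.05% down with the inhibitor alone, 2.21% up and 4.24% down with the control alone, and 76.5% in neither. The 757 and 232 were chosen by these same responses, so the shares are a description. An enlarged response, the same way and by more, was found in 1 of the 989, PPY, a pancreatic peptide hormone, which averaged 2.20, 0.961, 11.7 and 0.821 TPM in the order of groups above and had responses of -1.09 and -3.09. After median of ratios scaling, 541 of 902 higher genes (60.0%) moved only with the inhibitor and 86 of 460 lower genes (18.7%) only with the control.

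Of the 52 gene lists described, 28 had a median interaction above that of all genes and 24 below it, and 51 kept their side after median of ratios scaling. The largest median was that of epidermis and epithelial junctions. Its 43 measured genes had a median response of 0.21 with the control and 1.33 with the miR-200a inhibitor, and 41 had an interaction above 0, as did 67% of all genes. None passed adjustment in any of these comparisons with injury, and 12 (27.9%) were higher at an unadjusted p of 0.05, beside 5.13% of all genes. COL17A1, a collagen that anchors basal keratinocytes, held 60.3, 58.1 and 18.3 TPM in uninjured control, 60.2, 19.6 and 15.6 in injured control, 0.962, 4.61 and 0.0877 in uninjured inhibitor and 18.0, 23.1 and 17.0 in injured inhibitor libraries. Only the uninjured inhibitor libraries stood apart, and the interaction was 4.18 (limma adjusted p = 0.622). CLDN4, a tight junction protein, held 1.31 to 2.15 TPM in uninjured inhibitor libraries and 8.76 to 174 TPM elsewhere, with an interaction of 3.39 (adjusted p = 0.658). The epidermal list took 0.604% to 1.93% of TPM in uninjured control, 1.23% to 1.35% in injured control, 0.158% to 0.433% in uninjured inhibitor and 0.468% to 1.02% in injured inhibitor libraries. How much skin each dissection held, and its part in these interactions, was not tested.

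The Wnt, FGF, Hedgehog, Notch and TGF-beta and BMP lists lay above the median as well, while the retinoic acid list lay below it. Wnt ligands, receptors and effectors, a pathway that patterns the growing tail and cord, had a median response of -0.36 with the control and 0.60 with the inhibitor. At an unadjusted p of 0.05, 11 of 62 (17.7%) had a higher interaction, beside 5.13% of all genes. Of the 62, 16 moved up by at least 1 with the inhibitor alone, 3 with the control alone and 2 with both, which is 25.8%, 4.84% and 3.23% of them, beside 11.7%, 2.21% and 2.07% of all genes. WNT10A, a ligand, held 11.4, 9.08 and 3.73 TPM in uninjured control, 7.25, 2.38 and 4.65 in injured control, 0.262, 0.700 and 0 in uninjured inhibitor and 3.32, 3.75 and 1.98 in injured inhibitor libraries. Its injured inhibitor libraries thus lay within or below the range of the injured controls, and the uninjured inhibitor libraries were the lowest. Its interaction was 2.84 (limma adjusted p = 0.658). The Wnt effector TCF7L1 had responses of -0.46 and 1.28 (interaction 1.74), and the receptor-clearing ligase RNF43 had responses of -0.51 and 0.89 (interaction 1.39). Median interactions were 0.84 for FGF ligands, receptors and feedback genes, 0.83 for Hedgehog, 0.69 for Notch and 0.66 for TGF-beta and BMP genes. At an unadjusted p of 0.05, 7.32%, 15%, 3.57% and 8.51% of these were higher, beside 5.13% of all genes. The 25 retinoic acid genes had a median interaction of 0.19, against 0.31 for all genes. With 0 higher and 1 (4%) lower, they stood beside 5.13% and 1.57% of all genes. The FGF list and the TGF-beta and BMP list also had 1 lower member each (2.44% and 2.13%), and the Wnt, Hedgehog and Notch lists had 0. ETV4, a transcription factor that FGF signalling turns on, had responses of -0.47 and 1.01.

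Immediate early genes, which code for AP-1 subunits and other factors switched on by wounding, had a median response of 0.26 with the control and 1.12 with the inhibitor. Of 31, 13 (41.9%) moved up by at least 1 with the inhibitor alone and 5 (16.1%) with both, beside 11.7% and 2.07% of all genes. After median of ratios scaling 6 (19.4%) moved up with the inhibitor alone, beside 9.35% of all genes. As deposited, 4 (12.9%) were higher at an unadjusted p of 0.05 (EGR2, FOSL2, IER2 and ZFP36), beside 5.13% of all genes. FOSL2, an AP-1 subunit, held 6.19, 23.6 and 7.82 TPM in uninjured control, 23.2, 18.8 and 15.6 in injured control, 1.12, 4.58 and 0.510 in uninjured inhibitor and 14.9, 16.1 and 11.7 in injured inhibitor libraries. The injured libraries of either inhibitor were close, and the uninjured inhibitor libraries were the lowest. Its interaction was 2.03 and that of ZFP36, which destabilizes cytokine messages, was 2.69 (limma adjusted p = 0.658 for each). FOS had responses of 1.18 and 2.59 and an interaction of 1.41, with 2.11, 25.2 and 25.1 TPM in the injured inhibitor libraries, and did not pass.

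Nervous system lists had negative median responses with the control and medians nearer 0 or above it with the inhibitor. The median response of 63 neuronal and synaptic genes was -0.82 with the control and 0.00 with the inhibitor, that of 39 neuronal differentiation factors was -0.89 and -0.12, and that of 62 axon guidance genes was -0.55 and 0.59. In uninjured tissue the median effect of the inhibitor on these lists was already -1.74, -1.86 and -1.725, where that of all genes was -0.997. The abundant neuronal genes did not follow the median responses. The summed level was taken over all 64 neuronal and synaptic genes in the table, of which 63 were tested. It took 0.357% to 2.15% of all TPM in uninjured control and 0.382% to 0.841% in injured control libraries. With the miR-200a inhibitor it took 0.332% to 0.450% in uninjured and 0.197% to 0.225% in injured libraries. Injured inhibitor libraries thus lay below all others in this sum. The 2.15% was that of uninjured control library 1, and the part of that library in the list medians was not tested. SNAP25, a synaptic fusion protein, held 257, 207 and 313 TPM in uninjured inhibitor and 85.8, 129 and 98.0 TPM in injured inhibitor libraries. NEUROG3, a proneural transcription factor, was the only member of these 3 lists whose fall with the control passed. It held 13.5, 4.75 and 4.39 TPM in uninjured control libraries and 0 to 0.618 TPM in the other 9, with an interaction of 2.88 (limma adjusted p = 0.658). ATOH1, another proneural factor, held 10.8, 6.28 and 1.29 TPM in uninjured control and 0 to 2.47 TPM elsewhere. For NEUROG3 every uninjured control library lay above all others, while for ATOH1 uninjured control library 5 lay below injured inhibitor library 7, and the highest value of each came from uninjured control library 1, the library with the high neuronal share. Without that library the interaction was 2.40 for NEUROG3 and 3.65 for ATOH1. PRX, a protein of myelinating Schwann cells, held 83.5, 6.97 and 6.54 TPM in injured controls, so that 1 library set its group mean, and its interaction was 3.44.

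Chromatin, HOX and collagen lists followed the shift, while scar proteoglycans and matrix glycoproteins did not. The median interaction of these 34 matrix genes was 0.32, against 0.31 for all genes. At an unadjusted p of 0.05, 1 of them (2.94%) was higher and 3 (8.82%) lower, beside 5.13% and 1.57% of all genes. Of 63 chromatin remodelers and histone modifiers, 8 (12.7%) were higher at an unadjusted p of 0.05, beside 5.13% of all genes. Among them was the histone methyltransferase KMT2A with responses of -0.45 and 1.54. Of 36 HOX genes, which set position along the body axis, 5 (13.9%) were higher, beside the same 5.13%, and HOXA5 and HOXA7 had interactions of 2.53 and 2.19. Among 29 genes of microRNA processing and silencing, AGO2, the slicer of the silencing complex, held 8.94, 2.11 and 5.03 TPM in uninjured control, 6.48, 3.38 and 2.67 in injured control, 0.130, 2.58 and 0.05 in uninjured inhibitor and 6.60, 5.01 and 5.00 in injured inhibitor libraries. Its low values lay in 2 of the 3 uninjured inhibitor libraries, and its interaction of 2.77 did not pass (limma adjusted p = 0.658). Of 40 collagen chains, 7 (17.5%) were higher and 1 (2.5%) lower, beside 5.13% and 1.57% of all genes. COL17A1, one of the higher ones, is also on the epidermal list. COL10A1, the lower one, a collagen of maturing cartilage, and PAX3, a factor of muscle and neural crest progenitors, were listed at 0 in all libraries but the injured controls, which held 1.51, 1.42 and 4.45 TPM of COL10A1 and 4.96, 1.52 and 1.19 TPM of PAX3. Both met the level rule through the injured control libraries alone, so that they had to differ between groups, and their values are given as a description. MMP2, a gelatinase, rose by 1.57 with the control (adjusted p = 0.00903, and 0.0563 without 4 days post-injury control library 5) and had a response of 0.39 with the inhibitor.

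**Figure D4:**
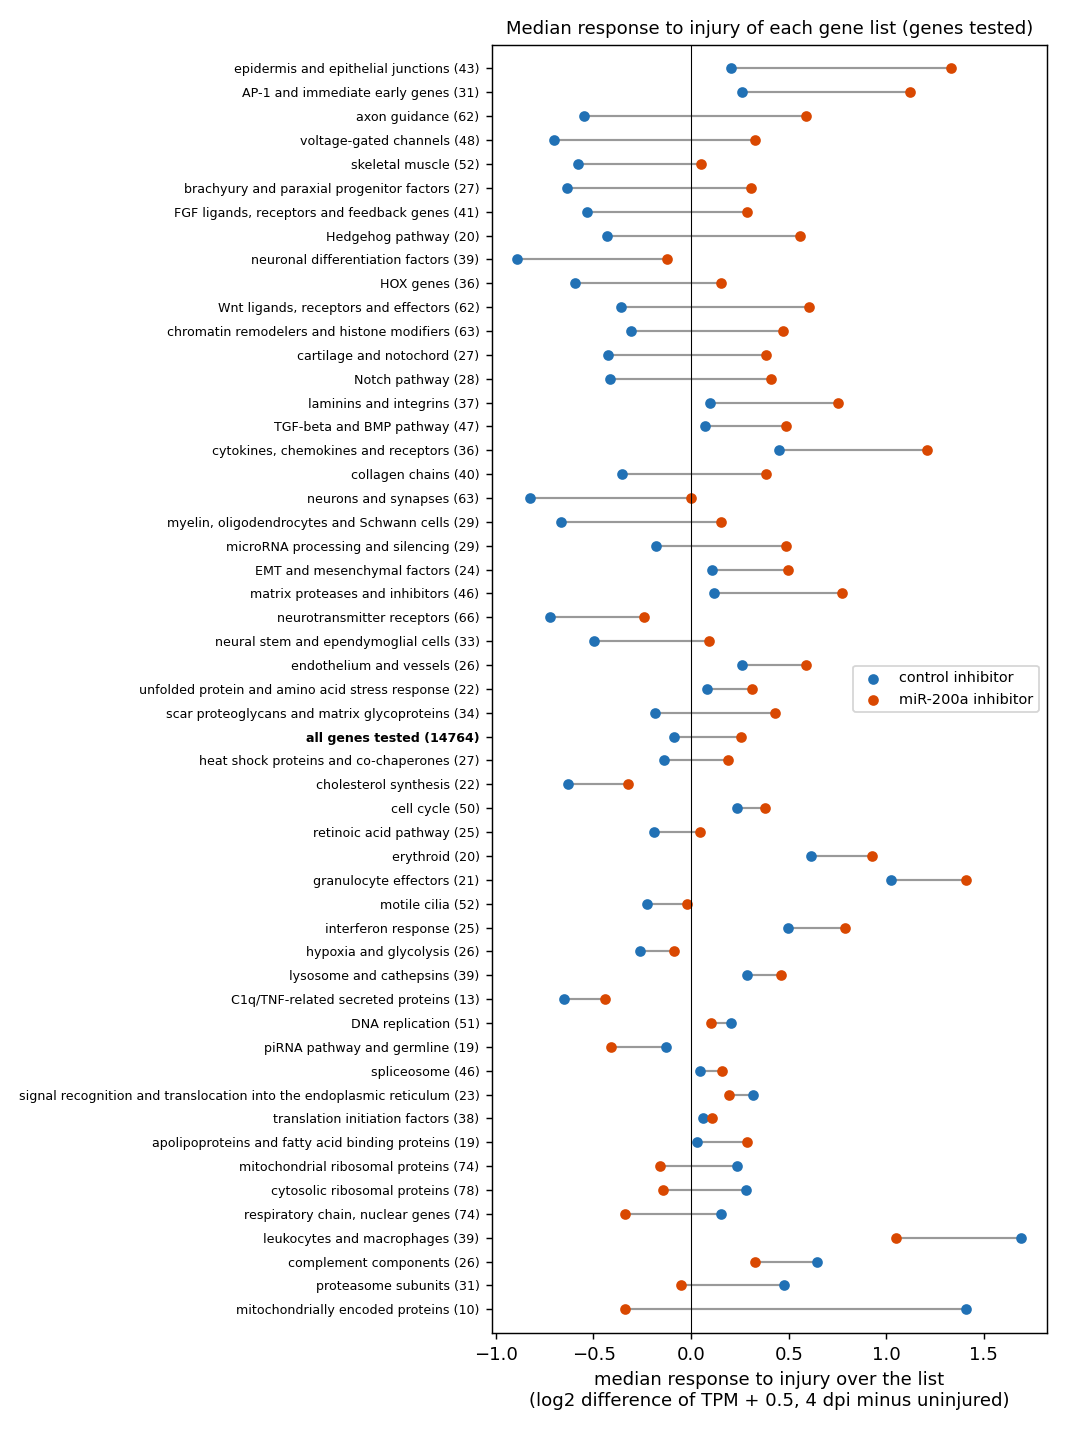
Median response to injury (difference in log2 of TPM + 0.5) over each of 52 gene lists and over all 14764 genes tested (bold), with the control inhibitor in blue and the miR-200a inhibitor in orange, ordered by median interaction, with the number of genes tested in parentheses. Epidermal and junction genes lie at the top (0.21 and 1.33), and leukocyte, complement, proteasome and mitochondrially encoded genes lie at the bottom, where the response is lower with the miR-200a inhibitor.

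Genes of protein synthesis, protein breakdown and respiration lay on the other side. The median interaction was -0.43 for 78 cytosolic ribosomal proteins, -0.41 for 74 mitochondrial ribosomal proteins, -0.49 for 74 nuclear genes of the respiratory chain and -0.56 for 31 proteasome subunits. At an unadjusted p of 0.05, 11 of the respiratory genes (14.9%) and 5 of the proteasome genes (16.1%) were lower and none of either list was higher, beside 1.57% of all genes lower. After median of ratios scaling 2 of the respiratory genes (2.7%) and 2 of the proteasome genes (6.45%) were lower, beside 3.12% of all genes. Nearly all of their responses to injury were under 1 in size. PSMA2, a proteasome core subunit, held 190, 197 and 214 TPM in uninjured control, 231, 401 and 370 in injured control, 436, 382 and 424 in uninjured inhibitor and 420, 367 and 362 in injured inhibitor libraries. The uninjured control libraries were the lowest, and the 2 inhibitor groups were level. Its interaction was -0.81, that of NDUFB2, a subunit of complex I, was -0.89, and that of MRPL52 was -0.86 (limma adjusted p = 0.658 for each). The 10 mitochondrially encoded genes had a median response of 1.41 with the control and -0.34 with the inhibitor, and none of their interactions had an unadjusted p under 0.05. The summed level of the 11 such genes in the table did not follow these medians. It took 2.10% to 2.95% of all TPM in uninjured control and 2.37% to 3.54% in injured control libraries. With the miR-200a inhibitor it took 3.25% to 5.64% in uninjured and 4.48% to 5.77% in injured libraries. Cytosolic ribosomal proteins took 5.84% to 8.36% of all TPM in uninjured control and 6.96% to 10.4% in injured control libraries. With the miR-200a inhibitor they took 14.5% to 17.1% in uninjured and 12.9% to 15.7% in injured libraries, above every control library. Since TPM are shares of a fixed sum, a higher share of abundant messages in a library lowers the TPM of the rest, which the median of ratios scaling changes for all genes alike. The part of these shares in the levels of other genes was not tested.

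Brachyury (T), a transcription factor of mesoderm and notochord that the study followed, held 0.288, 2.39 and 0.337 TPM in uninjured control and 0.274, 0.332 and 1.58 TPM in injured control libraries. It held 2.01, 1.76 and 2.58 TPM in uninjured inhibitor and 4.86, 6.69 and 5.84 TPM in injured inhibitor libraries. Injured inhibitor libraries lay above all others, and 1 uninjured control library lay within the range of the uninjured inhibitor libraries. Its response was -0.17 with the control and 1.27 with the miR-200a inhibitor, and its interaction of 1.44, with an interval of -0.22 to 3.09, did not pass (limma unadjusted p = 0.083, adjusted p = 0.658). The effect of the inhibitor on its level at 4 days post-injury was 2.50 and passed (adjusted p = 0.0471), as it did in 10 of 23 other fits. It did not pass after median of ratios scaling (adjusted p = 0.0758), without the trend (adjusted p = 0.0887) or without 4 days post-injury control library 1 (adjusted p = 0.191), and its highest adjusted p was 0.221, without 4 days post-injury inhibitor library 7. The effect in uninjured tissue was 1.06 and did not pass (adjusted p = 0.108). These 2 effects were not shown to differ from each other.

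Of 26 genes that the study named, all were tested, 18 had an interaction above 0, a sign that 67% of all genes had, and 8 below it, with a median of 0.47 against 0.31 for all genes. The only unadjusted p under 0.05 was that of TDRD9, and none passed adjustment. SOX2, the neural stem cell factor, held 232, 57.5 and 57.2 TPM in uninjured control, 115, 35.7 and 66.0 in injured control, 17.9, 26.8 and 22.0 in uninjured inhibitor and 26.3, 20.4 and 21.1 in injured inhibitor libraries. Its response was -0.50 with the control and 0.03 with the inhibitor, and library 1 of each control group was the highest of its group. The interaction was 0.53 (limma adjusted p = 0.79), and without uninjured control library 1 it was -0.14. GFAP, a marker of the cells lining the canal, had responses of -1.11 and -1.88 and an interaction of -0.77, and neither response passed. The ligands WNT5A and WNT3A had interactions of 1.19 and 1.93, with intervals that reached to -0.08 and -0.07.

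**Figure D5:**
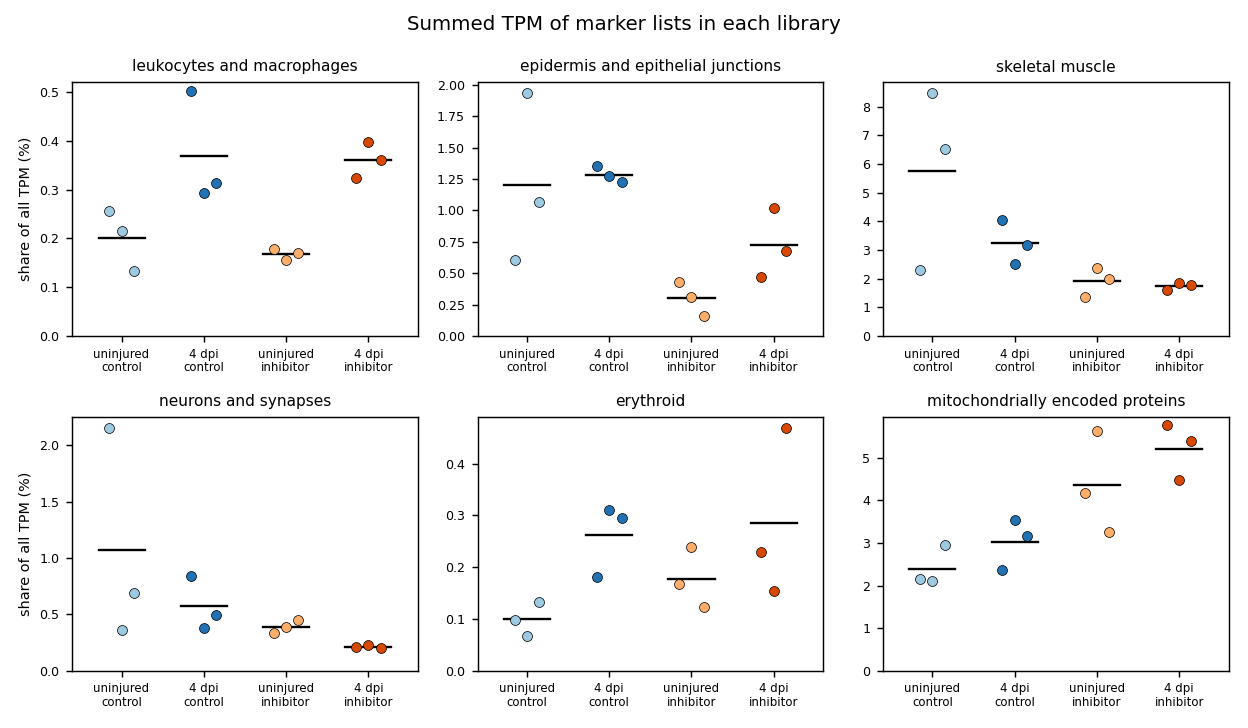
Summed TPM of 6 marker lists as a percentage of all TPM in each of the 12 libraries (points, with bars at the group mean). Leukocyte genes take 0.293% to 0.501% in injured controls and 0.324% to 0.398% in injured inhibitor libraries, epidermal genes are lowest in uninjured inhibitor libraries, and neuronal genes are highest in uninjured control library 1 at 2.15%.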

How the data were processed

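The 12 bulk RNA-seq libraries were analysed from a table of TPM that the authors deposited, 1 column per library, each summing to 1000000. The submitters' processing notes name Bowtie 0.12.1, RSEM 1.1.6 and DESeq2 1.16.1. No source used here names the transcriptome, the genome build or any filter. In 25 rows a spreadsheet date stood in place of the gene symbol, which was restored from the transcript ID. The filter asked for 0.5 TPM or more in 3 libraries. Then log2(TPM + 0.5) was fitted with limma 3.58.1 in R 4.3.3 (4 group means, trend in the prior variance), and p-values were adjusted by Benjamini-Hochberg over all genes. The added 0.5 makes differences of low genes too small. An interaction passed at an adjusted p of 0.05, and other differences also needed an absolute log2 difference above 1. The test was tried on simulated data with planted interactions. Of those of 2, 4 and 6 (log2) in size, 21 of 68 (30.9%), 46 of 66 (69.7%) and 56 of 66 (84.8%) passed. In the same run 20 genes without a planted interaction passed as well. Among all genes that passed there, these 20 were a larger share than the 0.05 that the adjustment aims at. P-values measure the spread between pools of animals.

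Genes named in the text are the 12 largest interactions in each direction among those that passed with at least 5 TPM in the highest group, filled by the smallest unadjusted p, up to 3 per gene list, the genes the study names, C1QTNF2 and C1QTNF9, and a few singled out after their values were seen. The members and the lists were chosen with earlier results of these data known. The other fits tried changed the pseudocount, filter, scaling, variance model, threshold or libraries, 1 at a time. No sequence is shown because none was used.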

Additional observations from a re-analysis of the deposited data

Results flagged for a closer look

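Injury had different effects with the control and with the miR-200a inhibitor, by the test of the difference itself (limma, adjusted over 14764 genes), in 4 genes. The interaction on the log2 scale was 8.52 for C1QTNF9, whose injured libraries were below the uninjured ones in 3 of 3 control libraries and above them in 3 of 3 inhibitor libraries. It was 6.84 for C1QTNF2, -1.97 for LYZ and -2.98 for PLBD1. Groups of 3 libraries were too small to look for single libraries that stand apart by a fixed criterion.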

How the results depend on the processing

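Besides brachyury, the interactions of 65 genes were followed under the alternatives, and that of ADIPOQ was not. The direction was kept in all of the 65 except SOX2 (0.53). When 1 library at a time was left out, the interaction of SOX2 ran from -0.14, without uninjured control library 1, to 0.94. The median of the erythroid list, -0.13 relative to all genes, was 0.05 after median of ratios scaling. Leaving out 1 library at a time, the count of interactions that passed (4) ran from 1, without 4 days post-injury control library 6, to 10, without uninjured control library 1. The count ran from 85 to 311 for the response with the control (138), from 8 to 461 for the response with the miR-200a inhibitor (64), from 4804 to 7584 for the inhibitor in uninjured tissue (6691) and from 0 to 1748 for the inhibitor at 4 days post-injury (277). The interaction of brachyury ran from 0.83 to 1.90. Median of ratios scaling gave 184 for the response with the inhibitor, 4168 (2221 higher) against 490 higher of 6691 for the inhibitor in uninjured tissue and 11 for the inhibitor at 4 days post-injury, and left 1 of the 2 turned responses past the threshold. Quantile normalization gave 7 interactions, 2863 for the inhibitor in uninjured tissue and 7 for the inhibitor at 4 days post-injury. Library weights, which ranged from 0.168 to 8.29, gave 1799 interactions (1403 higher and 396 lower), 721 and 2611 responses and 2901 for the inhibitor at 4 days post-injury. The unadjusted p gave 989 interactions, 817 and 1694 responses and 2446 for the inhibitor at 4 days post-injury, and an adjusted p under 0.1 gave 216, 265 and 1600 for the last 3. At 4 days post-injury the inhibitor counted 451 genes with the filter at 2 TPM and 0 in limma without the trend, where 2403 had an unadjusted p under 0.05 and the same fold. Without both control libraries numbered 1, a fit chosen after seeing the data, the counts were 280 and 663 responses and 10 for the inhibitor at 4 days post-injury. The causes of these changes were not tested.

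Library numbers were not used as pairs in the main fit. Of 11 pairs of libraries with the same number, 4 had deviations that correlated above 0.1 (range -0.285 to 0.506). The highest were between the control groups, at 0.506 for number 1 and 0.274 for number 5. Number 1 occurs only in control groups and number 7 only in inhibitor groups, so number and inhibitor are partly tied. With the replicate block the interaction again gave 4 genes, and the counts were 928 and 1514 for the responses and 445 for the inhibitor at 4 days post-injury, while C1QTNF2 and PLBD1 each had an adjusted p of 0.105. LYZ had an adjusted p of 0.0625 without the trend. TPM carry no read counts, so the depth behind low genes is unknown.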
